A study of Mus musculus with 18 samples.

Results

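Chemokines made by mucosal epithelia, together with their receptors, were followed in lacrimal glands (LGs) of male BALB/c and NOD.H-2b mice. The 10 genes were taken by symbol from the 54232 genes of the count table, and all 10 were found: the ligands Ccl20, Ccl25, Ccl28, Cx3cl1, Cxcl14 and Cxcl16 and the receptors Ccr6, Ccr9, Ccr10 and Cx3cr1. The grouping was by function, except that the list was also selected on a large strain difference in Ccl20, so the strain difference of Ccl20 is given below as a description with no test. Each of the 18 samples was 1 whole gland of 1 male mouse, with 3 mice in each of the 6 groups: BALB/cJ controls at 2, 4 and 6 months (2M, 4M and 6M) and NOD.B10Sn-H2b/J mice, called NOD.H-2b, at the same ages. NOD.H-2b is a congenic strain that keeps the NOD background but carries the H2b haplotype in place of the NOD major histocompatibility complex. It is used as a model of Sjögren's syndrome, in which lymphocytes infiltrate the lacrimal and salivary glands, and it does not develop the diabetes of NOD mice. The labels name no transgene and no treatment for any mouse. BALB/c is not the parental strain of NOD.H-2b, so the disease and the remainder of the genetic background cannot be told apart in any comparison of the strains.

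Chemokines are small secreted or membrane-bound proteins that draw leukocytes along a concentration gradient through G protein-coupled receptors. Epithelia of the gut, airways and exocrine glands make a characteristic set of them. Ccl25 guides Ccr9-bearing lymphocytes to the small intestine, Ccl28 draws Ccr10-bearing IgA plasma cells to secretory glands, and Ccl20 is induced in inflamed epithelium and attracts Ccr6-bearing B cells, T cells and dendritic cells. Cx3cl1 (fractalkine) and Cxcl16 are made as transmembrane proteins that hold cells carrying Cx3cr1 or Cxcr6 and can be shed by the proteases Adam10 and Adam17, whereas the receptor of Cxcl14 is not firmly established.

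The 6 ligands fall into 3 chemokine families by the spacing of their first cysteines, and the coding stretch around these cysteines is printed for each because it shows which family a transcript of the gland encodes. The sequences are the GRCm38 reference (C57BL/6J) as spliced in GENCODE M21 transcripts, not sequences of BALB/c or NOD.H-2b mice, and capitals mark the codons of the first cysteines. Coordinates run from the first to the last base shown and include an intron for Ccl20, Ccl25 and Cxcl14.
Ccl20, chr1:83116899-83117839, + strand, exons 1 and 2: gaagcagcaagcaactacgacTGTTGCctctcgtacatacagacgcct
Ccl25, chr8:4349888-4353923, + strand, exons 2 and 3: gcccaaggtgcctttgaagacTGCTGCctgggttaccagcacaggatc
Ccl28, chr13:119645871-119645918, + strand, exon 2: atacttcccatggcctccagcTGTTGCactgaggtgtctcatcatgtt
Cx3cl1, chr8:94778030-94778086, + strand, exon 2: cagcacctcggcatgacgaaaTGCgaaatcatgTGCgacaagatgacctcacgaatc
Cxcl14, chr13:56295894-56296122, - strand, exons 1 and 2: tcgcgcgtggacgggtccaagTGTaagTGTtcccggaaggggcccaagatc
Cxcl16, chr11:70459106-70459156, - strand, exon 2: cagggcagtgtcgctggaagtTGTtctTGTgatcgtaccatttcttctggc
The codons are adjacent in Ccl20, Ccl25 and Ccl28, which are CC chemokines. They are separated by 1 residue in Cxcl14 and Cxcl16 (CXC chemokines) and by 3 residues in Cx3cl1 (CX3C). The encoded precursors ranged from 97 residues for Ccl20 and 99 for Cxcl14 to 246 for Cxcl16 and 395 for Cx3cl1, the longer pair being the transmembrane ligands.

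All values are raw read counts per gene or CPM, the counts per 1000000 counts of a library size scaled by TMM over the 18 mice. Depth ranged from 49480781 to 103936830 counts per mouse, the deepest library being BALB/c 6M replicate 1. Markers of epithelium (10 genes) and of acinar cells (4 genes) were detected in every group, and the 5 salivary gland markers summed to at most 1.69 CPM in any mouse, with Smr3a at 0 throughout. Within groups, NOD.H-2b 2M replicate 1 had the lowest summed B cell markers of its group (0.825 CPM, against 26.7 and 10.4 CPM), and BALB/c 4M replicate 3 had more T cell marker RNA (4.29 CPM) than the other BALB/c mice (at most 1.48 CPM). The 18 pairs of replicates differed beyond sampling noise (chi-square of 17.7 to 91.1 per gene).

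Per kilobase of each gene's main transcript, Ccl28 was the highest of the 10 genes in every group, and Ccl20 or Ccr10 the lowest. In BALB/c at 6M the mean Ccl28 level was 109.5 CPM per kb, followed by Ccl25 at 11.1, Cx3cl1 at 5.37, Cxcl14 at 3.84, Ccr9 at 1.95, Cxcl16 at 1.22, Cx3cr1 at 0.753, Ccr10 at 0.232, Ccr6 at 0.0870 and Ccl20 at 0.0639 CPM per kb. Only Ccr6 and Ccl20 overlapped between neighbours in this order. In NOD.H-2b at 6M the order was Ccl28 (50.3 CPM per kb), Ccl25 (13.0), Cxcl14 (11.2), Ccr6 (9.43), Cxcl16 (9.38), Cx3cl1 (4.11), Cx3cr1 (3.99), Ccl20 (3.19), Ccr9 (2.56) and Ccr10 (0.489). There, the neighbours from Ccl25 to Cxcl16 overlapped in turn, as did those from Cx3cl1 to Ccr9. The rank of Ccl25 depends on the length used: its main transcript has 1058 bases and the union of its exons 7445, and over the exon union its mean at 2M in BALB/c was 1.74 instead of 12.2 CPM per kb.

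**Figure D1:**
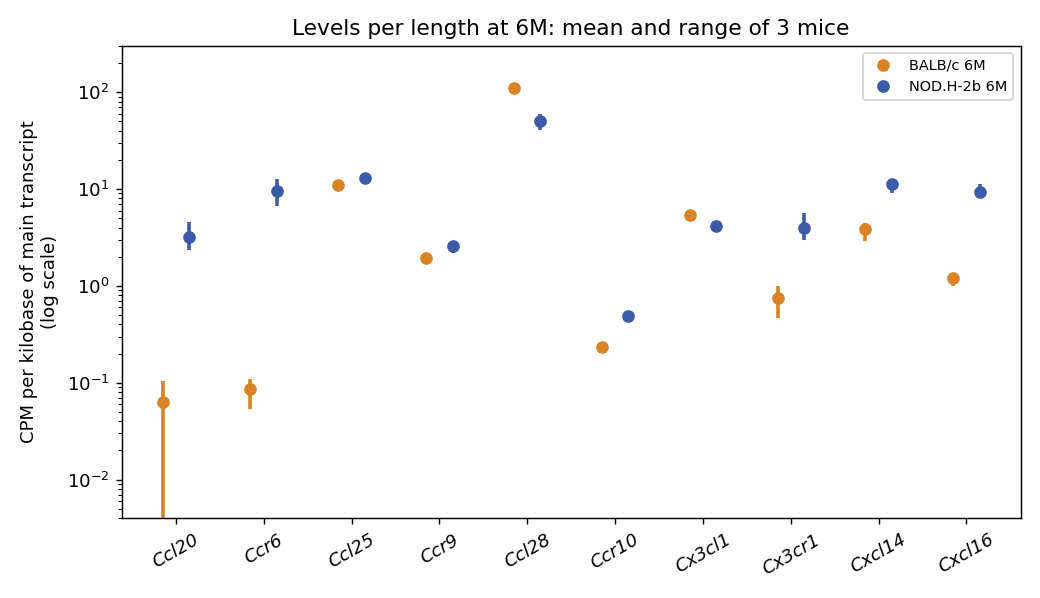
Mean level of each gene at 6M in CPM per kilobase of its main transcript (log scale), with lines from the lowest to the highest of 3 mice; orange is BALB/c and blue is NOD.H-2b. Ccl28 is the highest gene in both strains, and the largest gaps between strains are those of Ccl20 and Ccr6, whose BALB/c values lie near the bottom of the plot (1 BALB/c mouse had no Ccl20 count, so its line runs off the log axis).

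Ccl20 was nearly absent from BALB/c glands and present in every NOD.H-2b gland. The gene lies at chr1:83116766-83119167 (+ strand). Its raw counts in BALB/c were 0, 0 and 0 at 2M, 2, 2 and 4 at 4M and 0, 4 and 3 at 6M. In NOD.H-2b they were 30, 52 and 54 at 2M, 129, 93 and 68 at 4M and 278, 105 and 119 at 6M. The groups did not overlap at any age, and the highest value was that of NOD.H-2b 6M replicate 1. Scaled, the NOD.H-2b mice had 0.495, 0.8004 and 0.854 CPM at 2M, 1.96, 1.43 and 1.36 CPM at 4M and 3.63, 1.86 and 2.10 CPM at 6M. Since no read was found in BALB/c at 2M, the difference at that age is a bound: against a floor of 3 counts per library, NOD.H-2b mice had at least 13.2-fold more Ccl20. The pooled ratio was 34.1 at 4M (8 against 290 counts, 95% interval 17.1 to 79.7) and 69.9 at 6M (7 against 502 counts, 95% interval 33.7 to 175), where the ratio of mean CPM was 49.9. BALB/c 6M replicate 1, the deepest library, had 0 of the 7 counts, and the fitted log2 difference at 6M, 5.94, was 5.01 without it and 6.69 without BALB/c 6M replicate 2. These exact intervals cover counting error only and not the spread between mice. In this whole-gland RNA, a change in the number of cells of a type and a change in RNA per cell cannot be told apart.

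The 250 bases before the annotated start of Ccl20 (RefSeq, GRCm38.p6, chr1:83116516-83116765, + strand) are shown because Ccl20 is known as a target of inflammatory signalling through NF-kB. Capitals mark the match to the NF-kB motif.
Ccl20 promoter: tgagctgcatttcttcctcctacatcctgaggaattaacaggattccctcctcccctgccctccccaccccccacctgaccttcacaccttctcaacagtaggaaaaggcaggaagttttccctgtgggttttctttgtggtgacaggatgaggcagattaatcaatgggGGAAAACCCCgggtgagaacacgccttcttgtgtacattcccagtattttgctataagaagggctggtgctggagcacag
The match starts 80 bases before the start site. An NF-kB match on either strand was found in 2382 of 32851 promoter windows of the same length (7.25%), and among the 8 members with a window it was found in Ccl20 and Ccr6. The motif match is a description of the reference and says nothing about binding in these glands.

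Ccr6, the receptor of Ccl20, was higher in NOD.H-2b at each age and by the widest margin of the tested members at 4M and 6M. It lies at chr17:8236043-8257141 (+ strand). BALB/c mice had 0.0381, 0.196 and 0.105 CPM at 2M, 0.0745, 0.0405 and 0.180 CPM at 4M and 0.129, 0.0626 and 0.115 CPM at 6M. NOD.H-2b mice had 0.413, 1.62 and 1.14 CPM at 2M, 13.1, 7.67 and 6.43 CPM at 4M and 14.8, 7.80 and 10.5 CPM at 6M. The lowest NOD.H-2b value was that of 2M replicate 1, and no NOD.H-2b mouse overlapped with the BALB/c mice of its age. The log2 fold change was 3.21 (SE 0.626, FDR 0.00275) at 2M, 6.42 (SE 0.478, FDR 5.46e-05) at 4M and 6.67 (SE 0.342, FDR 6.93e-07) at 6M, by the quasi-likelihood test of edgeR, with FDR values from a Benjamini-Hochberg adjustment over all genes (n = 3 against 3). BALB/c groups held only 18 to 20 counts in total, and without BALB/c 2M replicate 2 the 2M value was 3.85, while without BALB/c 4M replicate 3 the 4M value was 7.24, with the call kept in both cases. Ccr6 passed the count filter only through the NOD.H-2b mice, so these tests could call it higher but not lower. B cell markers moved with Ccr6: the 7 genes summed to 0.123 to 0.661 CPM in BALB/c mice against 0.825 to 26.7 CPM in NOD.H-2b mice at 2M, to 1.07 to 1.96 against 129.8 to 288 CPM at 4M, and to 0.871 to 1.59 against 206 to 401 CPM at 6M. Their part in the Ccr6 result was not tested.

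Ccl25 and Ccr9, the gut-homing pair, differed little between the strains. Ccl25 (chr8:4325210-4360020, + strand) ranged in BALB/c from 12.7 to 13.2 CPM at 2M, 10.9 to 11.3 CPM at 4M and 10.5 to 12.7 CPM at 6M. In NOD.H-2b it ranged from 13.9 to 16.0 CPM at 2M, 12.1 to 14.0 CPM at 4M and 13.2 to 14.2 CPM at 6M. The NOD.H-2b range lay above the BALB/c range at each age, but by a small margin. On the log2 scale the strain difference was 0.22 (SE 0.0739, FDR 0.0369) at 2M, 0.24 (SE 0.0958, FDR 0.06999) at 4M and 0.24 (SE 0.101, FDR 0.0704) at 6M, and the 2M difference, 1.16-fold, was the one that passed the threshold. That call was lost when any 2M mouse other than NOD.H-2b replicate 3 was left out (log2 fold change 0.15 to 0.23, FDR 0.0655 to 0.179 over the 5 fits), whereas the call was gained at 4M without NOD.H-2b replicate 1 (0.29, FDR 0.0378) and at 6M without BALB/c replicate 3 (0.29, FDR 0.0398). It was also lost without a count filter (FDR 0.0729), by the DESeq2 Wald test (FDR 0.0959), with the replicate block (FDR 0.0561) and in the fit of all 18 mice (0.17, FDR 0.117). In that last fit the ages called were 4M (0.23, FDR 0.0305) and 6M (0.20, FDR 0.0469).

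Ccr9 (chr9:123678439-123784330, + strand), which marks gut-homing T cells and plasma cells, had 4.57, 4.54 and 4.68 CPM in BALB/c mice against 2.51, 5.79 and 3.53 CPM in NOD.H-2b mice at 2M. At 4M it had 6.18, 5.65 and 5.55 CPM in BALB/c mice against 8.25, 5.84 and 4.98 CPM in NOD.H-2b mice. At 6M it had 5.58, 6.15 and 5.18 CPM in BALB/c mice against 8.40, 6.35 and 7.44 CPM in NOD.H-2b mice. The strains overlapped at 2M and 4M and were separate at 6M, where the lowest NOD.H-2b mouse was just above the highest BALB/c mouse. Its log2 fold change was -0.19 (SE 0.274, FDR 0.623) at 2M, 0.15 (SE 0.182, FDR 0.556) at 4M and 0.40 (SE 0.138, FDR 0.0324) at 6M. The 6M call, 1.32-fold higher in NOD.H-2b, was lost without BALB/c replicate 1 or 3 or NOD.H-2b replicate 1 or 3 (log2 fold change 0.30 to 0.40, FDR 0.0820 to 0.115) and in the fit of all 18 mice (0.37, FDR 0.168), and at 2M a lower level in NOD.H-2b was called only without NOD.H-2b replicate 2 (-0.59, FDR 0.0177). Exons of AC165425.1 on the opposite strand cover 18.8% of the Ccr9 exons, and since the strand setting of the counting is not given in the sources used here, reads of these genes cannot be told apart.

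Ccl28 was the only ligand among those tested with a strain difference that grew between 2M and 6M by the test given below, and it was lower in NOD.H-2b at 2M and 6M. This chemokine (chr13:119623819-119654359, + strand) attracts cells bearing Ccr10 or Ccr3 and is abundant in exocrine glands. At 2M it had 279, 257 and 291 CPM in BALB/c mice against 241, 223 and 204 CPM in NOD.H-2b mice, with no overlap. At 4M it had 271, 293 and 259.7 CPM in BALB/c mice against 242, 330.4 and 416 CPM in NOD.H-2b mice, and the BALB/c mice lay inside the wider NOD.H-2b range. At 6M it had 365, 455 and 409 CPM in BALB/c mice against 154, 222 and 189 CPM in NOD.H-2b mice, the groups with the highest and the lowest mean of the 6. The log2 fold change was -0.28 (SE 0.0639, FDR 0.00446) at 2M, 0.27 (SE 0.188, FDR 0.2999) at 4M and -1.12 (SE 0.141, FDR 0.000122) at 6M, a 2.17-fold lower level at 6M. Without NOD.H-2b 4M replicate 1, the 4M difference was called in the opposite direction to the other ages (0.45, FDR 0.00564). In the fit of all 18 mice the 2M call was lost (-0.32, FDR 0.138). The 4 acinar cell markers, Aqp5, Bhlha15, Slc12a2 and Spdef, moved in part with Ccl28: they summed to 900.3 to 1201 CPM in BALB/c mice against 562 to 760.4 CPM in NOD.H-2b mice at 6M, where 4 of 4 were called lower, but also to 1081 to 1228 against 759 to 1041 CPM at 4M, where 3 of 4 were called lower. Of all genes, 25.8% were called lower at 6M and 19.2% at 4M. The part of the acinar cell markers in the Ccl28 result was not tested.

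Ccr10, the receptor of Ccl28 on IgA plasma cells, was higher in NOD.H-2b at each age (chr11:101172997-101175443, - strand). Its raw counts at 2M were 0, 3 and 2 in BALB/c and 13, 39 and 38 in NOD.H-2b. At 4M it had 0.614, 0.121 and 0.509 CPM in BALB/c mice against 0.744, 1.56 and 1.12 CPM in NOD.H-2b mice. At 6M it had 0.386, 0.355 and 0.458 CPM in BALB/c mice against 0.797, 0.922 and 0.811 CPM in NOD.H-2b mice. The strains did not overlap, and the BALB/c mice of 2M were lower than all other mice. Expressed as log2, the difference was 3.91 (SE 0.720, FDR 0.00118) at 2M, 1.45 (SE 0.5002, FDR 0.0425) at 4M and 1.09 (SE 0.285, FDR 0.00909) at 6M. At 2M the value rests on 5 counts in BALB/c against 90 in NOD.H-2b (pooled ratio 15.8, 95% counting interval 6.52 to 49.8), and without BALB/c 2M replicate 2 it was 4.57 with the call kept. At that age Ccr10 passed the count filter only through the NOD.H-2b mice, so a lower call was not possible. The 4M call was lost without BALB/c replicate 2 or 3 or NOD.H-2b replicate 2 or 3 (1.03 to 1.62, FDR 0.0716 to 0.142) and with the replicate block (1.49, FDR 0.113), and the 6M call in the fit of all 18 mice (FDR 0.0620). The 5 plasma cell markers, some of which the gland itself also expresses, summed to 219 to 251 CPM in BALB/c mice against 471 to 973 CPM in NOD.H-2b mice at 2M, to 782 to 1362 against 2007 to 3945 CPM at 4M, and to 852 to 1308 against 2731 to 3336 CPM at 6M. Of these 5 markers, 2 were called higher and 1 lower at 2M, and 4 higher and 1 lower at 4M and at 6M. The shares of all genes called higher and lower were 22.5% and 17.2% at 2M, 23.4% and 19.2% at 4M, and 28.6% and 25.8% at 6M. The part of the plasma cell markers in the Ccr10 result was not tested.

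Cx3cl1 and its receptor differed between the strains in opposite directions at 4M and 6M. Cx3cl1 (chr8:94772009-94782427, + strand) had 20.2, 19.5 and 14.3 CPM in BALB/c mice against 14.8, 13.5 and 14.8 CPM in NOD.H-2b mice at 2M. In BALB/c against NOD.H-2b mice it had 22.7, 22.6 and 20.02 against 13.0, 16.3 and 16.5 CPM at 4M and 18.7, 16.3 and 18.3 against 12.6, 13.4 and 14.9 CPM at 6M. The strains overlapped only at 2M, through BALB/c replicate 3. Fitted log2 fold changes were -0.30 (SE 0.121, FDR 0.0828) at 2M, -0.50 (SE 0.110, FDR 0.00447) at 4M and -0.38 (SE 0.0944, FDR 0.00677) at 6M, which is 1.42-fold lower at 4M and 1.30-fold lower at 6M. Without BALB/c 2M replicate 3 the 2M difference was called as well (-0.44, FDR 0.00209), as it was without a count filter (FDR 0.00295), by the DESeq2 Wald test (FDR 0.0450) and in the fit of all 18 mice (FDR 0.0287).

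Cx3cr1, which marks monocytes and tissue macrophages among other leukocytes (chr9:119901616-120069879, - strand), was higher in NOD.H-2b at each age. BALB/c mice had 2.36, 2.52 and 1.93 CPM at 2M, 2.33, 3.95 and 4.29 CPM at 4M and 2.53, 3.13 and 1.47 CPM at 6M. NOD.H-2b mice had 8.65, 9.88 and 9.17 CPM at 2M, 13.0, 14.1 and 11.7 CPM at 4M and 17.7, 10.6 and 9.47 CPM at 6M. The lowest NOD.H-2b mouse of any age was above the highest BALB/c mouse of any age. Cx3cr1 differed by a log2 value of 2.05 (SE 0.127, FDR 3.63e-07) at 2M, 1.88 (SE 0.215, FDR 0.0002004) at 4M and 2.40 (SE 0.343, FDR 0.000955) at 6M, and these calls were kept in every fit with a mouse left out. The 7 macrophage markers summed to 44.3 to 61.9 CPM in BALB/c mice against 152 to 165 CPM in NOD.H-2b mice at 2M, to 69.4 to 104 against 194 to 204 CPM at 4M, and to 61.1 to 74.7 against 183 to 249.8 CPM at 6M. Their part in the Cx3cr1 result was not tested.

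Cxcl14, a chemokine that many epithelia express without stimulation (chr13:56288643-56296551, - strand), was higher in NOD.H-2b by nearly the same factor at each age. BALB/c mice had 9.56, 8.22 and 8.10 CPM at 2M, 6.29, 6.32 and 6.37 CPM at 4M and 5.25, 7.57 and 8.20 CPM at 6M. NOD.H-2b mice had 27.1, 22.5 and 25.4 CPM at 2M, 17.9, 19.4 and 18.8 CPM at 4M and 23.0, 21.6 and 16.6 CPM at 6M. No NOD.H-2b mouse of any age overlapped with a BALB/c mouse. The log2 fold change was 1.56 (SE 0.0924, FDR 2.43e-07) at 2M, 1.57 (SE 0.0906, FDR 2.15e-06) at 4M and 1.56 (SE 0.189, FDR 0.000149) at 6M, that is 2.95-, 2.98- and 2.95-fold, and stayed between 1.37 and 1.69 in all fits with a mouse left out. NOD.H-2b 2M replicate 1, the mouse with the lowest B cell markers of its strain, had the highest Cxcl14 value of all 18 mice (27.1 CPM). Replicate 3 of the same group was next, with 25.4 CPM. Whether Cxcl14 varies with the level of any marker list was not tested.

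The 250 bases before the start of Cxcl14 (RefSeq, GRCm38.p6, chr13:56296552-56296801, - strand) are printed because its strain difference was nearly the same at the 3 ages and its window held interferon-type motifs. Capitals mark a GAS match (TTCNNNGAA, the motif of STAT factors), which starts 191 bases before the start site, and an ISRE core match (the motif of interferon-stimulated genes), which starts 172 bases before it.
Cxcl14 promoter: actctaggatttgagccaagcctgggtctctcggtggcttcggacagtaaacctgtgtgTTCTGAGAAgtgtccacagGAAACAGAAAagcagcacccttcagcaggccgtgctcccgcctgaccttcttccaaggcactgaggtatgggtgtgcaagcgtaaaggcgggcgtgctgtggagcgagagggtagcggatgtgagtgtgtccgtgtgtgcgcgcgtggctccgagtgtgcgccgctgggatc
On either strand, the GAS motif occurred in 7.02% and the ISRE core in 2.98% of the 32851 windows of the same length. Among the 8 members with a window, GAS was also found in Ccr6, a TATA box (TATAAA, 12.4% of windows) in Ccl25 and Cx3cl1, and the AP-1 motif TGANTCA (6.75% of windows) in none. The GAS and ISRE core matches do not overlap each other, and they are properties of the reference sequence, not of these mice.

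Cxcl16, the transmembrane ligand that binds Cxcr6 on T cells and also takes up oxidized lipoprotein (chr11:70453983-70459984, - strand), had the largest strain difference of the tested ligands at each age. BALB/c mice had 3.01, 2.80 and 3.14 CPM at 2M, 4.17, 3.87 and 8.02 CPM at 4M and 3.55, 2.69 and 3.64 CPM at 6M. NOD.H-2b mice had 13.0, 18.8 and 17.6 CPM at 2M, 25.9, 20.7 and 23.9 CPM at 4M and 30.3, 21.7 and 24.1 CPM at 6M. The BALB/c mouse with the highest value, 4M replicate 3, was also the BALB/c mouse with the most T cell marker RNA, and it was still below every NOD.H-2b mouse. This gave log2 fold changes of 2.49 (SE 0.146, FDR 8.20e-07) at 2M, 2.14 (SE 0.301, FDR 0.00218) at 4M and 2.95 (SE 0.159, FDR 6.04e-07) at 6M, or 5.61-, 4.40- and 7.70-fold. With each mouse left out in turn, the log2 fold change stayed between 1.94 and 3.06 and was called each time. Exons of Zmynd15 on the opposite strand cover 18.3% of the Cxcl16 exons, so reads of these genes cannot be told apart without the strand setting.

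**Figure D2:**
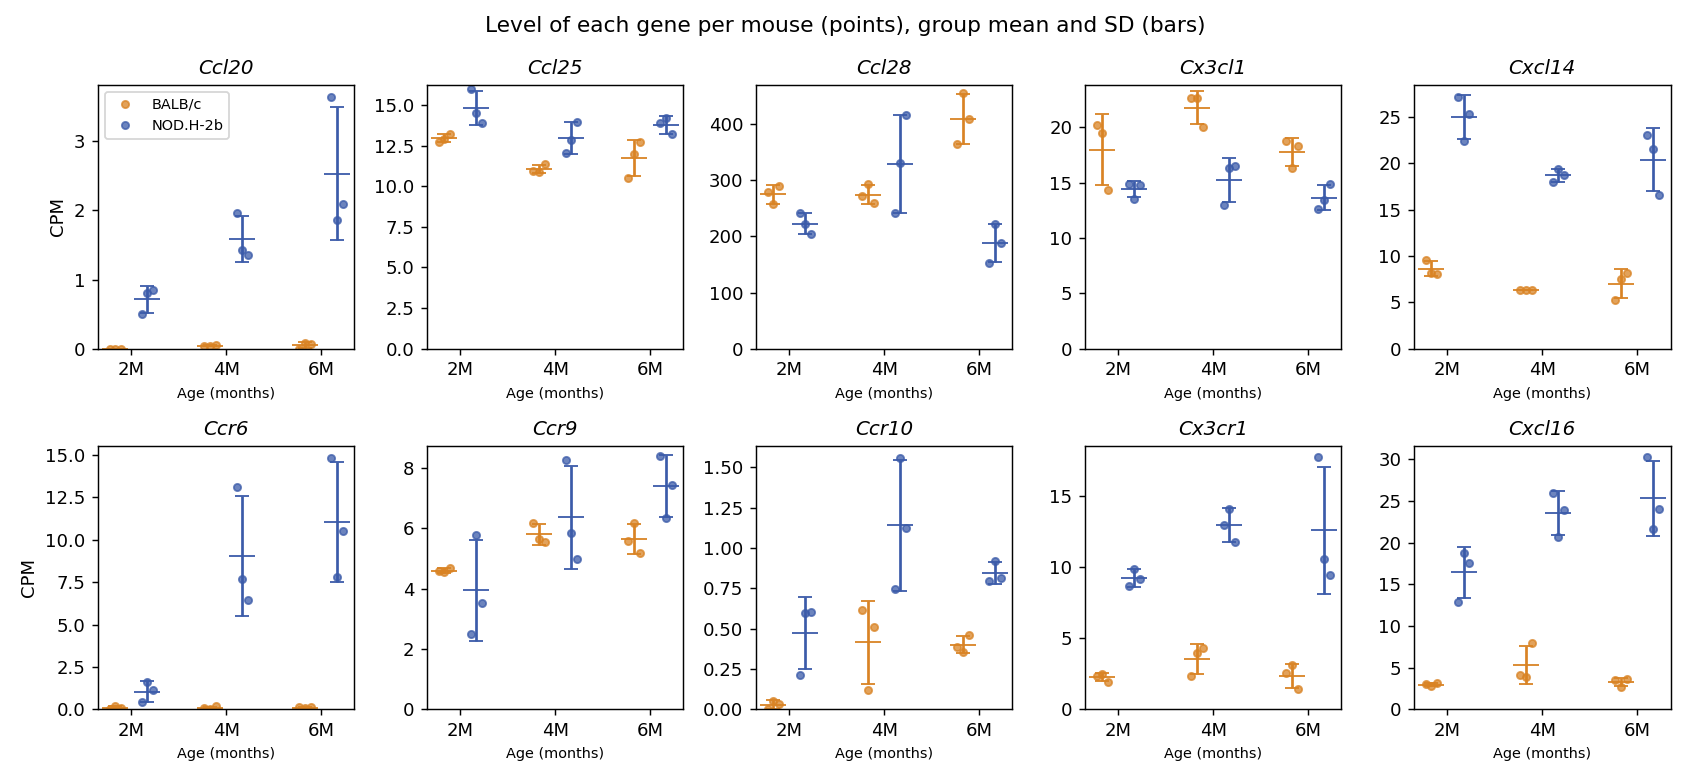
CPM of each of the 10 genes in each mouse (points) by age, with ligands in the upper row and, below each of the first 4, its receptor (Ccl20 and Ccr6, Ccl25 and Ccr9, Ccl28 and Ccr10, Cx3cl1 and Cx3cr1), while Cxcl14 and Cxcl16 share the last column; horizontal lines and bars give the mean and SD of 3 mice, orange for BALB/c and blue for NOD.H-2b. Ccl20, Ccr6, Ccr10, Cx3cr1, Cxcl14 and Cxcl16 are separate between the strains at every age, as is Ccl25 by a small margin. Ccl28 changes order, with BALB/c highest and NOD.H-2b lowest at 6M.

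Of the 9 members tested for strain (Ccl20 left out), NOD.H-2b mice of 2M had 6 called higher and 1 called lower, at an FDR under 0.05. Over all 17200 genes tested at that age, 22.5% were called higher and 17.2% lower. At 4M, 5 members were called higher and 1 lower, beside 23.4% and 19.2% of all genes. At 6M, 6 were called higher and 2 lower, beside 28.6% and 25.8% of all genes. In the order 2M, 4M and 6M, the 9 members had median log2 fold changes of 1.56, 1.45 and 1.09, and all genes tested had 0.00986, 0.000337 and -0.00414. The called direction was higher at each age for Ccr6, Ccr10, Cx3cr1, Cxcl14 and Cxcl16, which are 3 of the 4 receptors and both CXC ligands, while Ccl28 and Cx3cl1 were the members called lower. Ccr6 at each age and Ccr10 at 2M passed the count filter only through NOD.H-2b mice and could only be called higher.

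**Figure D3:**
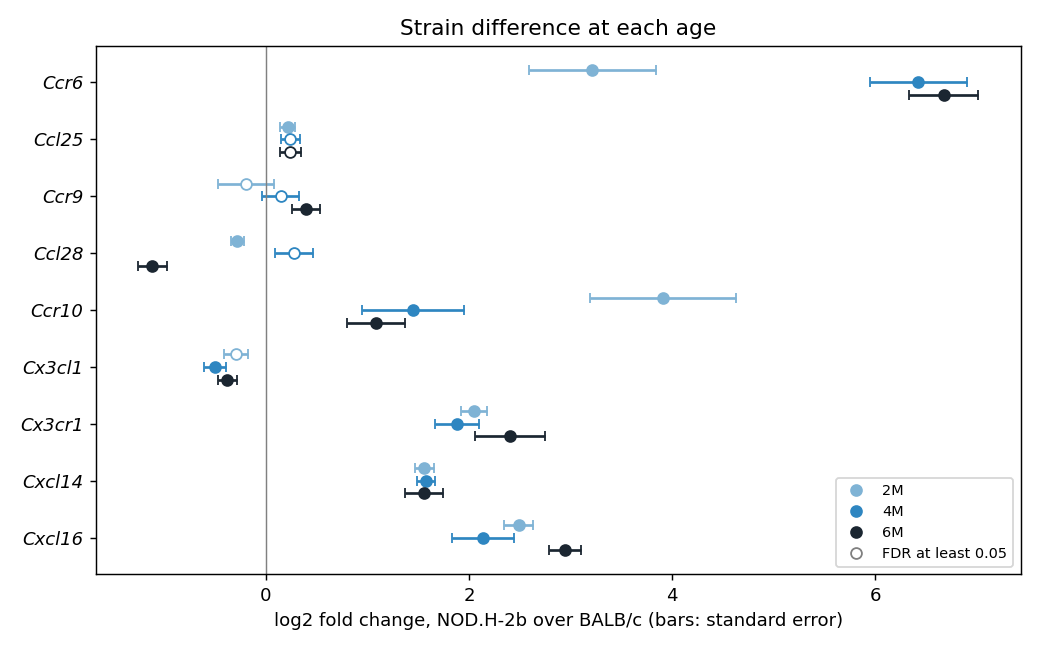
Log2 fold change of NOD.H-2b over BALB/c at 2M, 4M and 6M for the 9 tested genes, with bars of 1 standard error; filled points have an FDR under 0.05 and open points do not, and Ccl20 is left out because it was chosen for this contrast. Ccr6 lies farthest to the right at 4M and 6M, Cxcl14 stays near 1.56 at the 3 ages, and Ccl28 reaches -1.12 at 6M.

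Between 2M and 4M, 5 members were called changed in NOD.H-2b and 1 in BALB/c. Whether this step differed between the strains was not tested. In NOD.H-2b Ccl20 rose by 1.15 on the log2 scale (SE 0.284, FDR 0.0298), Ccr6 by 3.11 (SE 0.541, FDR 0.0224), Cx3cr1 by 0.50 (SE 0.107, FDR 0.0201) and Cxcl16 by 0.53 (SE 0.148, FDR 0.0471), while Cxcl14 fell by 0.41 (SE 0.0885, FDR 0.0205). Thus 4 of 10 members were called higher and 1 lower, where 10.3% and 5.48% of all genes were. In BALB/c, Cxcl14 fell by 0.45 (SE 0.0970, FDR 0.0104) and none of the 7 members tested was called higher. Cx3cr1 and Cxcl16 had larger fitted rises in BALB/c than in NOD.H-2b, but with a wider spread. These were 0.63 (SE 0.222, FDR 0.0895) for Cx3cr1 and 0.845 (SE 0.282, FDR 0.105) for Cxcl16. Over all genes 6.1% were called higher and 5.01% lower, and Ccl20, Ccr6 and Ccr10 had too few counts to be tested. The BALB/c total of Ccr10 was 5 counts at 2M and 73 at 4M, and without the count filter its log2 fold change was 3.69 (FDR 5.91e-06). In NOD.H-2b no member was called higher when 2M replicate 3 was left out, with an FDR of 0.0766 for Ccl20, 0.103 for Ccr6, 0.0825 for Cx3cr1 and 0.117 for Cxcl16. The same was so without 4M replicate 2 (FDR 0.0592, 0.0502, 0.0607 and 0.0583), and without 2M replicate 1 the calls of Ccl20, Cx3cr1, Cxcl14 and Cxcl16 were lost (FDR 0.0859, 0.0785, 0.0718 and 0.108). Further, the calls of Ccl20 and Cxcl16 were lost without 4M replicate 1 (FDR 0.0860 and 0.151), that of Cxcl16 without 4M replicate 3 (FDR 0.103), that of Cxcl14 without 2M replicate 3 (FDR 0.0836), and that of Cxcl14 in BALB/c without 2M replicate 1 (FDR 0.0533). Among the other settings, the Ccr6 call in NOD.H-2b was lost without a count filter (FDR 0.0593), that of Cxcl16 with DESeq2 size factors (FDR 0.0572), those of Cx3cr1 and Cxcl16 in the fit of all 18 mice (FDR 0.192 and 0.110), and all 5 with the replicate block (FDR 0.0652 to 0.145). The Cxcl14 call in BALB/c was lost in the fit of all 18 mice (FDR 0.0802). The directions were the same in all of these fits. Calls were gained for Ccr9 in NOD.H-2b without 2M replicate 2 (1.09, FDR 0.0338), for Ccl28 in NOD.H-2b without 4M replicate 1 (0.73, FDR 0.00836), and in BALB/c for Cx3cr1 without 4M replicate 1 (0.86, FDR 0.0100) and Cxcl16 without 4M replicate 2 (1.02, FDR 0.0447). Ccr10 in BALB/c had enough counts in 4 of the fits with a mouse left out and was called higher in 3 of them, without 2M replicate 1 (3.17, FDR 0.0410), 2M replicate 2 (4.35, FDR 0.0342) or 4M replicate 2 (4.11, FDR 0.00446). Other settings also added higher calls for this step: in NOD.H-2b, Ccl28 by the DESeq2 Wald test and in the fit of all 18 mice (FDR 0.00839 and 0.0201), Ccr9 in the fit of all 18 mice (FDR 0.0314), and Ccr10 without a count filter, by the Wald test and in the fit of all 18 mice (FDR 0.0365 to 0.0493). In BALB/c they were Ccr10 by the Wald test and in the fit of all 18 mice (FDR 0.00156 and 0.00648), Cx3cl1 and Cx3cr1 without a count filter (FDR 0.00411 and 0.00629), and Cxcl16 without a count filter, by the Wald test and with the replicate block (FDR 1.54e-06 to 0.0398), while Ccl25 was called lower with DESeq2 size factors (FDR 0.0494).

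Between 4M and 6M, Ccl28 in BALB/c was the member that passed the test. It rose by 0.59 on the log2 scale (SE 0.0852, FDR 0.0263), 1 of 8 members tested, where 0.174% of all genes were called higher and 0.132% lower. This call was lost without BALB/c 4M replicate 1, 2 or 3 or 6M replicate 2 (0.51 to 0.64, FDR 0.0723 to 0.114) and in the fit of all 18 mice (FDR 0.108), while Cx3cl1 and Cxcl16 were called lower without a count filter (FDR 0.0329 and 0.00248). In NOD.H-2b, 0 of 10 members were called by edgeR, where 0.00555% of all genes were called higher and 0% lower, although 2490 genes had an unadjusted p under 0.05. Ccl28 had the largest difference of the 10 there, -0.81 (SE 0.219, FDR 0.321), and it was called lower without 4M replicate 1 (FDR 0.0363), by the DESeq2 Wald test (-0.82, FDR 0.0151), with the replicate block (FDR 0.0205) and in the fit of all 18 mice (FDR 0.0185). The 2 age steps of a strain share their 4M mice and are not independent.

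**Figure D4:**
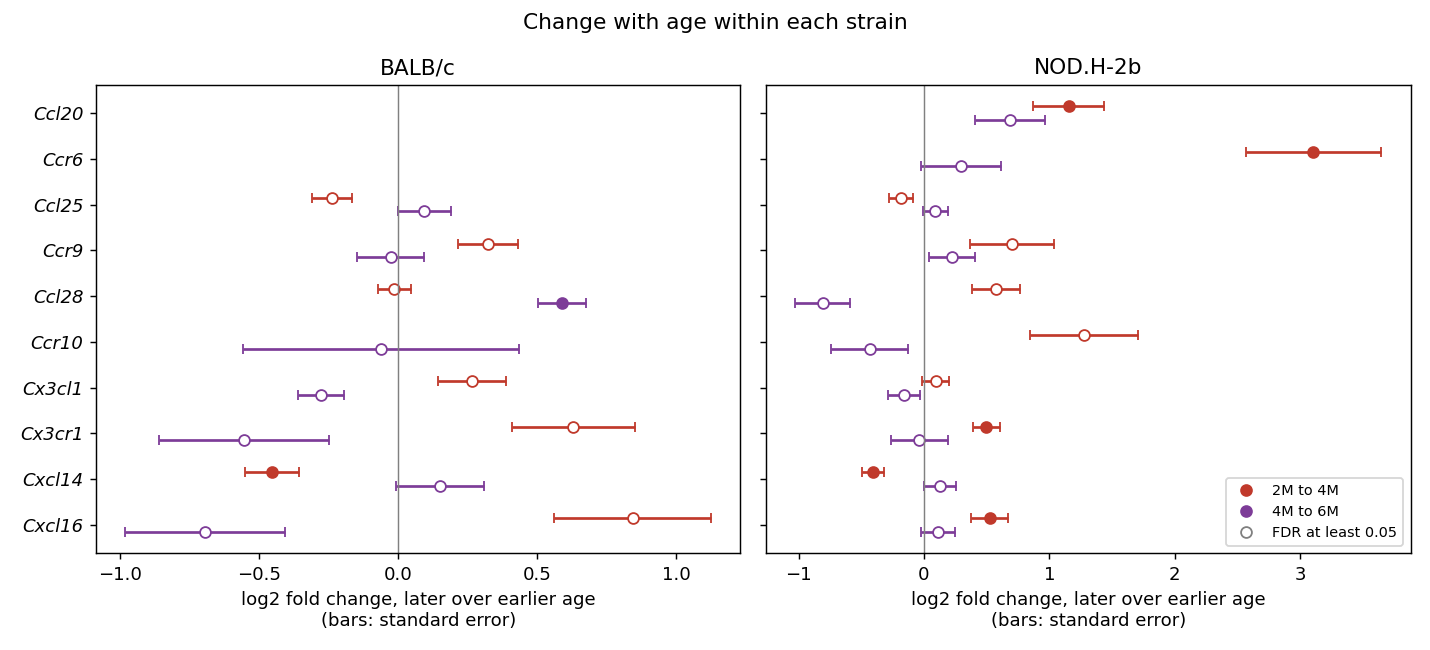
Log2 fold change between successive ages within BALB/c (left) and NOD.H-2b (right), with bars of 1 standard error and separate horizontal scales; filled points have an FDR under 0.05, and genes with too few counts to be tested have no point. In NOD.H-2b the filled points belong to the step from 2M to 4M, with Ccr6 at 3.11, and in BALB/c they are Cxcl14 at -0.45 and Ccl28 at 0.59.

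Whether the strain difference itself changed from 2M to 6M was tested in 1 fit of all 18 mice. The difference grew for Ccr6, by 3.48 on the log2 scale (SE 1.03, FDR 0.0360). It shifted downward for Ccl28, by -0.83 (SE 0.230, FDR 0.0263), which widened an already negative difference, and for Ccr10, by -2.82 (SE 0.881, FDR 0.0373), which narrowed a positive difference. Thus 1 of 9 members was called higher and 2 lower, with Ccl20 left out because it was chosen for its strain difference, where 7.04% and 9.09% of all genes were. For Cxcl14 the value was 0.00521 (SE 0.197, FDR 0.998). The Ccr6 call was lost without BALB/c 2M replicate 2 (2.78, FDR 0.190) or 3 (FDR 0.0776), NOD.H-2b 2M replicate 3 (FDR 0.0565), any of the 3 BALB/c 6M mice (FDR 0.0595 to 0.0690) or NOD.H-2b 6M replicate 1 (FDR 0.0628), and also without a count filter (FDR 0.0836) and with the replicate block (FDR 0.0548). The Ccl28 call was lost without BALB/c 2M replicate 2 (FDR 0.0508), NOD.H-2b 2M replicate 1 (FDR 0.0657) or NOD.H-2b 6M replicate 1 (FDR 0.0792), and without a count filter (FDR 0.0676). The Ccr10 call was lost in 8 of 18 such fits, those without BALB/c 2M replicate 1 or 3, NOD.H-2b 2M replicate 2 or 3, BALB/c 6M replicate 1 or 3, or NOD.H-2b 6M replicate 1 or 3 (FDR 0.0521 to 0.0890), and its value without BALB/c 2M replicate 2 was -3.53. A larger difference for Ccr9 was called without NOD.H-2b 2M replicate 2 (0.98, FDR 0.0160). The shift of the Ccl28 strain difference from 4M to 6M was tested after its values had been seen, and it was -1.42 (SE 0.231), with an FDR of 0.139 that missed the threshold.

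The partners of these ligands and receptors were read from a list of 33 related genes, all found in the table. Of these, 24 had enough counts to be tested for strain at 2M and 25 at 4M and at 6M. In NOD.H-2b mice the test called 20 higher and 1 lower at 2M, 18 higher and 1 lower at 4M, and 19 higher and 2 lower at 6M. Of all genes, 22.5% were called higher and 17.2% lower at 2M, 23.4% and 19.2% at 4M, and 28.6% and 25.8% at 6M. The related genes had a median log2 fold change of 1.25, 1.66 and 1.68 at the 3 ages, where the medians of all genes were the values near 0 given above. The genes called lower included, named here after their values were seen, the decoy receptor Ackr4 with a log2 fold change of -1.69 at 4M and the interleukin-17 receptor chain Il17rc with -0.46 at 6M. Cxcr6, the receptor of Cxcl16, was higher by 3.09 (FDR 0.0220) at 2M, 2.61 (FDR 0.00392) at 4M and 4.26 (FDR 0.000108) at 6M on the log2 scale, with 0.124 ± 0.109 CPM in BALB/c mice against 2.69 ± 0.347 CPM in NOD.H-2b mice at 6M (SD, with 3 mice each). The BALB/c total of Cxcr6 was 19 counts at 2M and 27 at 6M, and the lowest BALB/c mouse had 0. At these ages Cxcr6 passed the count filter only through NOD.H-2b mice and could only be called higher. Another related gene with few BALB/c counts had the same limit at 4M and 6M, and the numbers called higher include both genes. Adam17, which sheds Cx3cl1 under stimulation, had a log2 fold change of 0.92, 1.18 and 1.49 and was called at each age. Adam10, the constitutive sheddase of Cx3cl1 and Cxcl16, was also called higher at each age but by less (0.26, 0.30 and 0.23), with 53.6 ± 1.46 CPM in BALB/c mice against 62.4 ± 1.16 CPM in NOD.H-2b mice at 6M.

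Over all genes, 22.5%, 23.4% and 28.6% were called higher at 2M, 4M and 6M. Of the 6 homing genes of the list, 5 were tested and all 5 were called higher at 2M, and 4 of 5 at 4M and at 6M. The exception was Cdh1, which encodes E-cadherin, with a log2 fold change of 0.74 (FDR 3.40e-06) at 2M, 0.0145 (FDR 0.937) at 4M and -0.0724 (FDR 0.589) at 6M. Itgae, the integrin that holds lymphocytes to epithelial E-cadherin, differed by 2.84, 3.54 and 2.61 on the log2 scale, and its partner chain Itgb7 by 2.42, 3.31 and 4.15. Itga4 and its endothelial ligand Vcam1 reached 4.05 and 4.29 at 6M, where Vcam1 had 1.23 ± 0.312 CPM in BALB/c mice against 24.6 ± 4.75 CPM in NOD.H-2b mice. The gut addressin Madcam1, in contrast, had at most 0.0355 CPM in any mouse and was not tested. Cxcr4, a receptor of many leukocytes, and the leukocyte signalling genes Arrb2, Pik3cg, Rac2 and Dock2 were called higher at each age by at least 2-fold, with Cxcr4 at 5.07 and Rac2 at 4.89 at 6M. Igha and Jchain, the heavy chain and the joining chain of IgA, differed by 3.95 and 3.67 at 2M, and by 1.78 and 1.68 at 6M. Igha had 33.0 ± 13.8 CPM in BALB/c mice of 2M and 650.1 ± 183 CPM in those of 6M, and 500.1 ± 210.5 and 2228 ± 274 CPM in NOD.H-2b mice of these ages. Pigr, the epithelial receptor that carries IgA into tears, was higher in NOD.H-2b at 2M (2.21, FDR 0.00226) and had a log2 fold change of -0.42 (FDR 0.0690) at 4M and -0.41 (FDR 0.246) at 6M. The strain difference of Pigr shifted by -2.62 from 2M to 6M (FDR 0.00160). Of the 25 related genes tested for this shift, 5 were called lower: Pigr, Igha (-2.16), Jchain (-1.98), Cdh1 (-0.80) and Il17rc (-0.46). Another 7 were called higher, beside 7.04% of all genes called higher and 9.09% lower. The cytokines known to induce Ccl20 in epithelium were at the detection limit, with 0 counts of Il17a and Il22 in all mice and 1 count of Il17f in 1 mouse. A count of 0 allows up to 3 counts per library, or 0.0322 to 0.0687 CPM, for counting error alone, so expression below that level was not detectable. By contrast, the receptor chain Il17ra was called higher in NOD.H-2b at each age (0.29, 1.08 and 1.37). Il17ra, Cdh1 and Madcam1 were singled out after their values were seen.

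Marker lists show what else moved with the strain. The 6 T cell markers summed to 0.333 to 0.5001 CPM in BALB/c mice against 5.78 to 22.3 CPM in NOD.H-2b mice at 2M, and to 0.825 to 1.48 against 54.4 to 75.4 CPM at 6M, and 6 of 6 were called higher at each age. For B cells, 2 of 3 markers tested were called higher at 2M and 7 of 7 at 4M and at 6M. Within BALB/c, from 2M to 4M, 1 of 6 T cell markers and 3 of 7 B cell markers had enough counts to be tested. Markers with too few BALB/c counts passed the count filter only through NOD.H-2b mice and could only be called higher. Of the 7 macrophage markers, 7 were called higher at 2M and 6 at 4M and at 6M. The shares of all genes called at these ages are those given above. The summed T cell, B cell and macrophage levels did not overlap between the strains at any age. The 10 epithelial markers summed to 975 to 1010.0 CPM in BALB/c mice against 1134 to 1316 CPM in NOD.H-2b mice at 2M, and to 1042 to 1109.7 against 739.6 to 886 CPM at 6M, so that the sum in NOD.H-2b was above BALB/c at 2M and below it at 6M, as at 4M (1097 to 1173 against 817 to 1077 CPM). Single epithelial markers were mixed at the later ages. At 2M 8 were called higher and 0 lower, at 4M 1 higher and 2 lower, and at 6M 2 higher and 4 lower. The 7 endothelial markers summed to 59.8 to 63.4 against 114 to 131 CPM at 6M, where 3 were called higher and 1 lower. Myoepithelial markers (6 genes) overlapped between the strains at 2M and 6M and were lower in NOD.H-2b at 4M (111 to 142 against 93.4 to 98.3 CPM), with 102 to 142 CPM in BALB/c mice against 101 to 106 CPM in NOD.H-2b mice at 6M. The summed dendritic cell markers (5 genes) at 6M were 3.60 to 4.86 against 30.1 to 41.4 CPM, and the NK cell markers (4 genes) 0.115 to 0.547 against 5.12 to 7.55 CPM. The fibroblast markers (5 genes) were higher in NOD.H-2b at 2M, with 283 to 358 against 421 to 456 CPM, lower at 4M, with 235 to 329 against 191 to 226 CPM, and overlapped at 6M. Among the 5 markers of type 17 lymphocytes, Il17a and Il22 were at 0 in every group. The adipocyte and skeletal muscle lists (4 genes each) summed to at most 1.84 and 1.44 CPM in any mouse. The part of these lists in the results above was not tested.

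**Figure D5:**
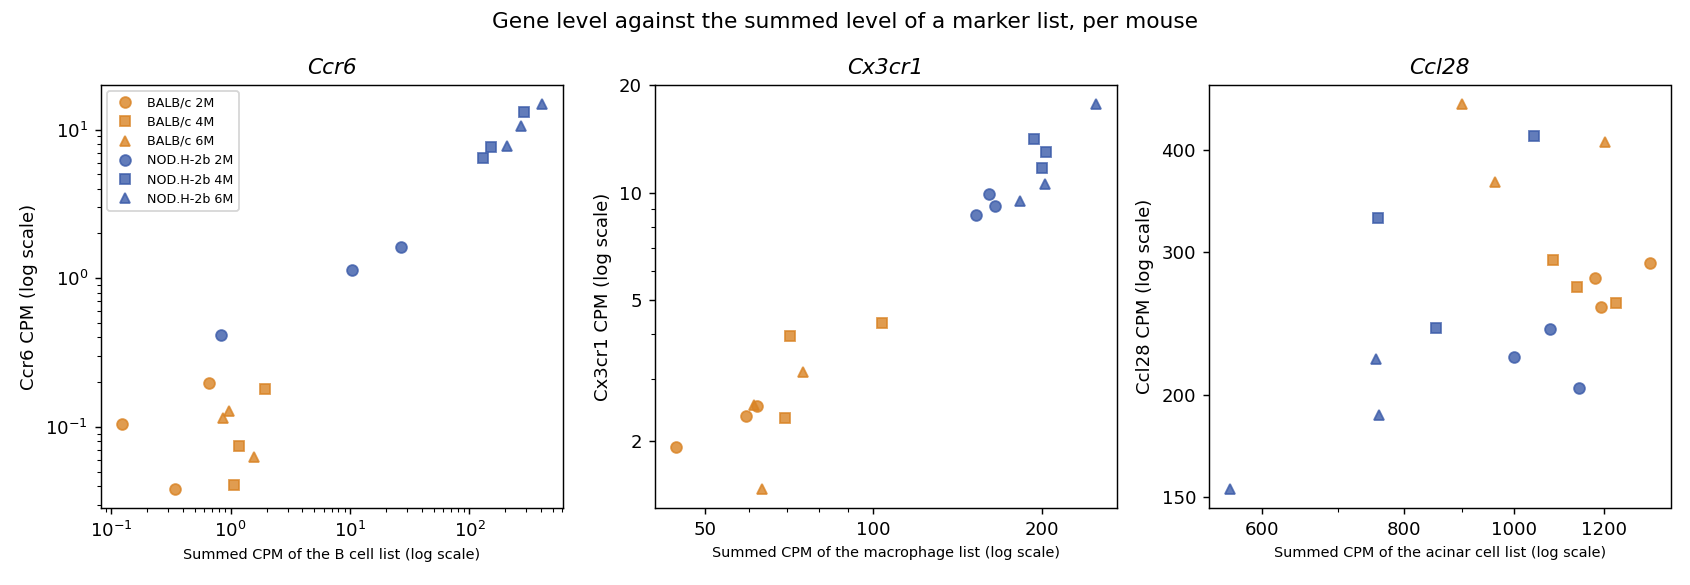
Level of Ccr6, Cx3cr1 and Ccl28 (CPM, log scale) in each of the 18 mice against the summed CPM of the B cell, macrophage and acinar cell lists (log scale); colour gives the strain and the shape of the point the age. Ccr6 and Cx3cr1 lie high where the B cell and macrophage lists are high, with the strains in separate parts of the plot, whereas Ccl28 spans 154 to 416 CPM in NOD.H-2b and overlaps between the strains; mice of a group share strain and age, and no correlation was computed.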

How the data were processed

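RNA of 18 LGs, 1 per male mouse and 3 per strain and age, was depleted of ribosomal RNA and sequenced. The authors used cutadapt for trimming, STAR with the GRCm38 genome for alignment and HTSeq for counting, and the deposited raw counts per gene are the values used here. A second deposited table, normalized by the authors with DESeq2, was not used. Tool versions, annotation release, strand setting and the handling of multi-mapping reads are not given in the sources used here.

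CPM were scaled by TMM over all mice in edgeR 4.0.16 (R 4.3.3). Strains at each age and successive ages within each strain were compared on the 6 mice of the comparison by the robust quasi-likelihood test of edgeR after filterByExpr, and strain by age on 18 mice. P-values were adjusted by Benjamini-Hochberg over all genes tested (FDR), and genes with an FDR under 0.05 were called. Depth was 49480781 to 103936830 counts per mouse, and the spread between 3 mice, rather than depth, limits most values. Replicate numbers were not treated as pairs in the main tests, and the labels do not say what they share. Of 21 same-numbered pairs, 4 had deviations correlated above 0.1 (range -0.41 to 0.45). Alternatives were DESeq2 size factors, upper quartile scaling, no count filter, the Wald test of DESeq2 1.42.0, a replicate block, other sets of mice and leaving out each mouse. Steps were tested on simulated data.

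All 10 members are named. From the related list, genes called in the same direction at 3 ages with at least a 2-fold change are named, with Cxcr6, Adam10, Adam17, Pigr and Igha in any case. The members, the gene lists and the marker lists were chosen with earlier results of these data known. Genomic positions are those of GENCODE M21, and promoter windows are those of RefSeq for 8 of 10 members (Ccr10 and Cxcl16 without one). Values of 1 gene of the related list are not reported here.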

Additional observations from a re-analysis of the deposited data

Results flagged for a closer look

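For 3 genes, the strain difference differed between 2M and 6M by the test of that change in the fit of all 18 mice. The change was 3.48 on the log2 scale for Ccr6 (FDR 0.0360), -0.83 for Ccl28 (FDR 0.0263) and -2.82 for Ccr10 (FDR 0.0373). Over all genes tested for this change, 7.04% were called higher and 9.09% lower. The Ccr6 change was 2.78 to 3.91 when each mouse was left out in turn and missed the threshold in 7 of 18 fits, the Ccl28 change was -0.96 to -0.71 and missed it in 3, and the Ccr10 change was -3.53 to -2.34 and missed it in 8. The Ccr10 value rests on 5 counts in the BALB/c mice of 2M, and 2 of the 3 changes involve receptors with under 1 CPM in BALB/c. The Ccr6 value rests on 19 counts in the BALB/c mice of 2M and 20 in those of 6M, near the floor at both ages.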

How the results depend on the processing

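No called direction was reversed for any member under any alternative run, and depth limits Ccl20, Ccr6 and Ccr10 in BALB/c, where group totals were as low as 0, 18 and 5 counts. The strain calls of Ccr6, Cx3cr1, Cxcl14 and Cxcl16 were kept at the 3 ages under every alternative. Members called higher at 2M went from 6 to 5 without a count filter, by the DESeq2 Wald test, with the replicate block and in the fit of all 18 mice, those at 4M from 5 to 4 with the block and to 6 in the fit of all 18 mice, and those at 6M from 6 to 5 in that fit. Without a count filter, the number of members called was 2 lower at 2M (main result 1), 4 higher in BALB/c from 2M to 4M (0), 2 lower in BALB/c from 4M to 6M (0), and 0 higher and 1 lower for strain by age (1 and 2). The DESeq2 Wald test gave 2 lower at 2M, 2 higher in BALB/c from 2M to 4M and 1 lower in NOD.H-2b for the step 4M to 6M (0), and DESeq2 size factors gave 2 lower in BALB/c from 2M to 4M (1). One fit of all 18 mice gave 1 higher and 0 lower in BALB/c from 2M to 4M, 0 higher in BALB/c from 4M to 6M (1), and 1 lower in NOD.H-2b for the step 4M to 6M. The replicate block gave 1 higher in BALB/c from 2M to 4M, 0 higher and 0 lower in NOD.H-2b for the step 2M to 4M (4 and 1), 1 lower for the step 4M to 6M in that strain and 0 higher for strain by age. The labels do not say whether mice with the same replicate number shared any step, so what the block accounts for is not known. Why these counts moved was not tested. Leaving out each mouse in turn gave 5 to 6 members higher and 1 to 2 lower at 2M, 4 to 7 and 1 at 4M, 5 to 6 and 2 at 6M, 0 to 2 and 0 to 1 in BALB/c from 2M to 4M, 0 to 1 and 0 from 4M to 6M, 0 to 5 and 0 to 1 in NOD.H-2b for the step 2M to 4M, 0 and 0 to 1 for the next step, and 0 to 2 and 0 to 2 for strain by age. The shift of the Ccl28 strain difference from 4M to 6M, chosen after seeing the data, was -1.60 to -1.22 over 25 settings, with an FDR of 2.77e-06 to 0.470 that was under 0.05 in 2 of them.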
